A study of Mus musculus with 24 samples.

Results

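Gene expression in mouse hearts reperfused for 6 h after 45 min of ischemia was compared with that in hearts after sham surgery. The members were the 3 libraries whose treatment label gives 6 h of reperfusion and the 3 labelled as sham, 6 of the 24 libraries of a series that also holds ischemia alone and reperfusion for 0.5, 1, 1.5, 3 and 12 h. All hearts came from C57BL/6 mice, described as wild type, with no transgene and no agent given. RNA was extracted with Trizol from frozen heart tissue and made into Illumina TruSeq libraries. Neither group has an age, a sex, a region of the heart or a clock time of collection in the labels. Whether each library of a group represents its own animal is not stated, and the p-values therefore measure only the spread between libraries, pooled over the groups, which may in part be technical. The series title names ATF3, FANCD2 and ferroptosis as the subject of the study, and this comparison bears on which transcripts differ from sham some hours into reperfusion.

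When blood flow returns to ischemic myocardium, surviving cells meet a burst of oxidants and calcium, and dying cells release signals that act on receptors of the innate immune system. Endothelium, fibroblasts and cardiomyocytes then make chemokines and adhesion molecules that draw neutrophils and later monocytes into the tissue. In the same hours cardiomyocytes induce stress and wall-strain genes, and ferroptosis, a cell death driven by iron-dependent oxidation of membrane lipids, is one of the forms of death described in this setting.

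The 6 libraries held 13407465 to 16957736 uniquely mapped reads, and 3 reads corresponded to 0.177 to 0.240 CPM (the counts-per-million unit, normalised by the trimmed mean of M values). Cardiomyocyte markers were present throughout: Myh6, the main adult mouse myosin heavy chain, was at 25637 ± 917 CPM in sham (SD, n = 3 here and below) and 25958 ± 3474 CPM at 6 h. Of 10 listed atrial genes, Bmp10 had 0 reads over the 6 libraries, Sln 5 and Myl7 31, while all 10 summed to 136 to 158 CPM in sham and 159 to 211 CPM at 6 h, with Kcnj3, Kcna5 and Nppa at 67.2, 38.5 and 15.8 CPM in sham. Reads marked as duplicates made up 50.1 to 54.4% of unique reads in sham and 41.9 to 45.5% at 6 h, and mitochondrial genes 28.9 to 33.2% and 19.0 to 21.3%. The libraries of a group differed from each other by more than sampling noise, with a chi-square per degree of freedom of 7.34 to 12.0 among sham libraries and 18.4 to 29.0 among 6 h libraries.

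Close to 1 in 2 of the genes tested differed between the groups. Of 15128 genes, 3714 (24.6%) rose and 3460 (22.9%) fell at 6 h at an adjusted p under 0.05 in edgeR's quasi-likelihood test over all 24 libraries. Counts within the gene lists below are to be read against both of these shares. At least 2-fold changes numbered 1583 up and 1362 down, and at least 4-fold changes 509 up and 294 down. The median log2 difference over all genes was -0.01. The lowest 6 h library lay above the highest sham library for 3606 of the genes that rose, and the highest 6 h library below the lowest sham library for 3326 of those that fell. Over all 15128 genes, called or not, the groups lacked overlap for 4630 higher and 4451 lower genes. A lack of overlap alone therefore does not set a gene apart. The 6 h libraries were not equally far from sham: replicate 2 was the highest of the 3 for 2391 (64.4%) of the genes that rose and the lowest for 1937 (56.0%) of those that fell. In a bulk sample, fewer cells of a type and less RNA per cell cannot be told apart.

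**Figure D1:**
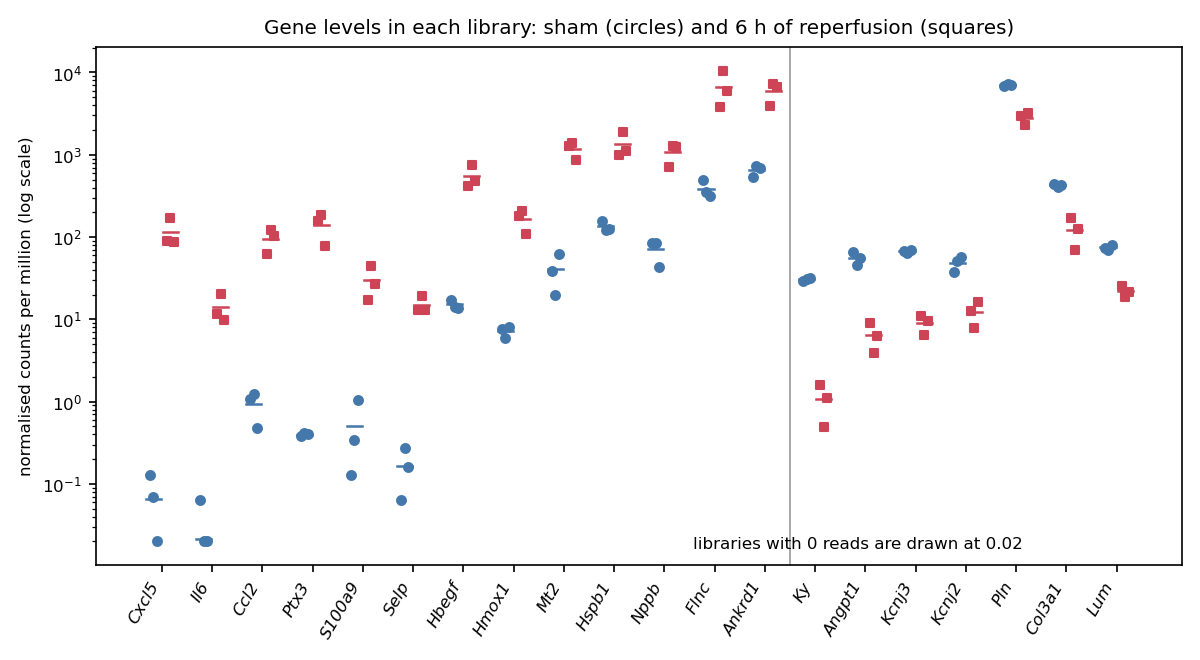
Normalised CPM (log scale) of 20 genes in each of the 3 sham libraries (circles) and the 3 libraries at 6 h of reperfusion (squares), with short lines at the group means. Left of the vertical line are 13 genes that rose and right of it 7 that fell. Libraries with 0 reads are drawn at the bottom of the axis. No gene shown has overlapping groups.

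Chemokines that attract neutrophils and monocytes were among the largest rises. Of the 11 CXC chemokine genes tested, 8 rose, 1 fell and 2 were not called, with a median log2 difference of 1.88. With a library left out 6 or 7 rose, and the median was 1.10 without 6 h replicate 1. Of the 13 CC chemokine genes tested, 11 rose, none fell (1 without 6 h replicate 1) and 2 were not called, with a median of 2.98. Members scarce in sham, among them Cxcl3, Cxcl5 and Ccl3, could pass the filter on low counts through a group of injured hearts alone. The counts and medians of both lists therefore support nothing by themselves. Cxcl5, a ligand of the neutrophil receptor CXCR2 (chromosome 5, 90759360 to 90761624), was at 0.128, 0.0685 and 0 CPM in the 3 sham libraries and 89.7, 169.6 and 88.3 CPM in the 3 libraries at 6 h. It had 3 reads over the sham group against 5716 at 6 h, a ratio of 1647 (exact 95% counting interval 563 to 7990). All 3 libraries at 6 h stood far above sham, with replicate 2 highest, and the size of such ratios rests on single sham reads. Its neighbour Cxcl3 had 1 read over the sham group against 815 at 6 h, a ratio of 705 (exact 95% counting interval 126 to 27860). Cxcl1 was at 1.35, 1.71 and 4.80 CPM in sham and 38.1, 67.2 and 34.01 CPM at 6 h, a log2 difference of 4.19 ± 0.39 (adjusted p = 1.33e-08) that was 4.92 without sham replicate 3, and Cxcl2 rose by 5.28 ± 0.57 (adjusted p = 1e-07). Ccl2, which recruits CCR2-bearing monocytes, was at 1.09, 1.23 and 0.480 CPM in sham and 62.5, 122 and 102 CPM at 6 h, with no overlap and a log2 difference of 6.63 ± 0.53 (adjusted p = 1.39e-09). Ccl7, a second ligand of that receptor, rose by 5.38 ± 0.48 (adjusted p = 5.19e-09). Cxcl9, an interferon-induced attractant of T cells, was the CXC gene that fell, from 12.1 ± 1.23 to 4.35 ± 2.02 CPM (log2 difference -1.47 ± 0.41, adjusted p = 0.00475). Cxcl12, at 193 and 238 CPM, was not called (log2 difference 0.30, adjusted p = 0.087).

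Promoter sequence is shown for 7 of the genes that rose, since members of 3 induced groups hold the same short motifs close to their start sites. The bases are RefSeq's, upstream of the annotated start on build GRCm38.p6, written 5′ to 3′ on the gene's strand. Capitals mark exact matches, on either strand, to the kappa-B motif (GGGA, any base, TTTCC), bound by NF-kappaB, to TGANTCA, the AP-1 heptamer that also lies within many antioxidant response elements, and to TTGCATCA, a composite C/EBP and ATF site. The 3 CXC chemokines and Il6 lie on chromosome 5 (Cxcl1 at chr5:90891095-90891244, plus strand, Cxcl2 at chr5:90903749-90903898, plus strand, Cxcl3 at chr5:90785951-90786100, plus strand, and Il6 at chr5:30012864-30013113, plus strand).
Cxcl1: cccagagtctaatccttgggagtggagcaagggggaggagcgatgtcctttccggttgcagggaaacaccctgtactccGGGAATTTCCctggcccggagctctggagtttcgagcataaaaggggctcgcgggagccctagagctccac
Cxcl2: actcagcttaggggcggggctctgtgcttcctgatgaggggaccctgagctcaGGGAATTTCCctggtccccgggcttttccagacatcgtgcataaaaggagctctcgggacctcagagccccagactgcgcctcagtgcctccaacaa
Cxcl3: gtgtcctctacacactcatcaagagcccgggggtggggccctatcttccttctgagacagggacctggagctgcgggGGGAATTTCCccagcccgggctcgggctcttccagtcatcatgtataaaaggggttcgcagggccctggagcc
Il6: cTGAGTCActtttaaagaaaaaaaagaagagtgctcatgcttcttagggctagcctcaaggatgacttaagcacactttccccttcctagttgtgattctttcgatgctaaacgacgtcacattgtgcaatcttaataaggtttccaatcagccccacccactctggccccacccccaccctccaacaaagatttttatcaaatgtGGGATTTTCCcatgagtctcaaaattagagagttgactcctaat
Cxcl1, Cxcl2 and Cxcl3 share the identical match GGGAATTTCC, which begins 71, 97 and 73 bases before the start, and Il6 holds GGGATTTTCC from base 44. Srxn1 (chr2:152105374-152105523, plus strand), Atf3 (chr1:191183334-191183483, minus strand) and Slc7a11 (chr3:50443614-50443763, minus strand) are described with the stress genes below.
Srxn1: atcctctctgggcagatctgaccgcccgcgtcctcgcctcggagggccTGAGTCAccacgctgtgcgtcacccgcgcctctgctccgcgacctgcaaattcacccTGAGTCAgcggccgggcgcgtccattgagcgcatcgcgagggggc
Atf3: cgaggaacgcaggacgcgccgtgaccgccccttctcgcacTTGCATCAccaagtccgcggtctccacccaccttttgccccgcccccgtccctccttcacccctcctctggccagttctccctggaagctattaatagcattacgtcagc
Slc7a11: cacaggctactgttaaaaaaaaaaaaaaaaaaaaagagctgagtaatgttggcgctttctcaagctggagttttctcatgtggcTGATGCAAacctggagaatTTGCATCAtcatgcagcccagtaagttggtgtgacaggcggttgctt
Within 250 bases before the start, the kappa-B motif was in 0.36% of all 32851 RefSeq promoter windows, TGANTCA in 6.75% and TTGCATCA in 0.79%. Among tested genes with a window, TGANTCA was in 45 of 332 (13.55%) that rose at least 4-fold, 12 of 202 (5.94%) that fell at least 4-fold and 627 of 11006 (5.70%) in all. The kappa-B motif was in 6 of the 332 and 1 of the 202, and TTGCATCA in 5 and 0. For kappa-B and TTGCATCA the order was the other way over all genes that rose and all that fell. Kappa-B was in 0.51% and 0.62% against 0.45% of tested genes, and TTGCATCA in 0.58% and 0.77% against 0.65%. TGANTCA kept its order, in 6.93% and 5.38%. These are matches of letters, given as a description with no test.

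Cytokines of the interleukin 6 and interleukin 1 families rose, and so did their antagonists and feedback inhibitors. In the interleukin 6 list, 14 of 20 genes rose and 1 fell, or 2 without sham replicate 3 (median 1.68), and in the interleukin 1 list 11 of 18 rose and 1 fell, or 0 to 2 with a library left out (median 1.17). Il6 was at 0.0642, 0 and 0 CPM in sham and 11.8, 20.2 and 9.84 CPM at 6 h, with 1 read over the sham group against 689 at 6 h, a ratio of 596 (exact 95% counting interval 107 to 23560). Osm and Lif, cytokines of the same family, rose by 5.70 ± 0.64 (adjusted p = 1.67e-07) and 3.77 ± 0.51 (adjusted p = 2.31e-06), and without sham replicate 3 the value of Osm was 7.02. Socs3, the feedback inhibitor of this signalling, was at 2.95, 2.67 and 1.60 CPM in sham and 82.5, 154 and 91.9 CPM at 6 h (log2 difference 5.48 ± 0.58, adjusted p = 6.57e-08). For Il6 and Socs3 every library at 6 h lay above every sham library, and replicate 2 was the highest. Lifr, the receptor of LIF, was the member that fell, from 77.2 ± 9.56 to 40.3 ± 7.63 CPM (log2 difference -0.94 ± 0.14, adjusted p = 5.48e-06). Il1b rose by 5.85 ± 0.54 (adjusted p = 9.42e-09), and Il1rn, which encodes the antagonist of its receptor, by 6.11 ± 0.66 (adjusted p = 8.58e-08). Il1r2, the decoy receptor, had 2 reads over the sham group against 432 at 6 h, a ratio of 187 (exact 95% counting interval 51.4 to 1547). Among TNF and NF-kappaB genes 15 of 21 rose and none fell (median 0.82). Tnfrsf12a, the receptor of TWEAK, was at 28.1, 15.3 and 12.95 CPM in sham and 291, 470.4 and 381 CPM at 6 h, the largest difference of that list (log2 difference 4.33 ± 0.33, adjusted p = 7.06e-10). Nfkbia, the classical NF-kappaB inhibitor gene, was at 62.4 and 64.03 CPM and was not called (log2 difference 0.04, adjusted p = 0.882).

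Markers of neutrophils and monocytes rose with these attractants. All 11 neutrophil genes that passed the filter on low counts rose. A member could pass through the 6 h group alone, so that count supports nothing by itself. The other 7 listed genes were under the filter, among them the granule genes Mpo (0 reads over the 6 libraries), Elane (1), Camp (8), Ngp (10) and Ltf (10), and the surface gene Ly6g (13). S100a9, a calcium-binding protein abundant in neutrophils, was at 0.128, 0.342 and 1.04 CPM in sham and 17.03, 45.1 and 27.2 CPM at 6 h (log2 difference 5.95 ± 0.58, adjusted p = 2.14e-08, and 6.95 without sham replicate 3). Mmp8, the neutrophil collagenase, had 1 read over the sham group against 555 at 6 h, a ratio of 479.8 (exact 95% counting interval 85.8 to 18990), and the receptor gene Trem1 had 1 read over the sham group against 303 at 6 h, a ratio of 262 (exact 95% counting interval 46.7 to 10380). All 18 listed neutrophil genes, whether or not they passed the filter, summed to 22.7 to 29.5 CPM in sham and 127 to 249 CPM at 6 h. Of 14 monocyte genes, 12 rose and none fell (median 1.95). Chil3, a chitinase-like protein of monocytes and macrophages, was at 0.0642, 0.137 and 0.0799 CPM in sham and 4.91, 13.2 and 18.1 CPM at 6 h (log2 difference 6.89 ± 0.62, adjusted p = 7.06e-09), and Ccr2, the receptor of CCL2, at 3.21, 2.40 and 3.44 CPM in sham and 5.62, 10.8 and 13.1 CPM at 6 h (log2 difference 1.70 ± 0.31, adjusted p = 8.07e-05). The monocyte sum went from 173 to 183 CPM in sham to 886 to 1257 CPM at 6 h, of which Thbs1, a matricellular gene also made by other cells, gave 728 CPM on average.

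Resident macrophage genes were mixed. Of 16 resident macrophage genes 8 rose and 4 fell (median 0.37). Adgre1, which encodes the F4/80 antigen, fell from 23.2 ± 0.829 to 10.9 ± 0.560 CPM (log2 difference -1.10 ± 0.15, adjusted p = 1.73e-06), Csf1r, the receptor of M-CSF, fell by 0.63 on the log2 scale (adjusted p = 1.87e-05), and Timd4, a receptor of resident macrophages for dying cells, fell to 0.542 CPM (log2 difference -1.82 ± 0.49, adjusted p = 0.00349, and -2.49 without 6 h replicate 1). In the same list Cd68 and Mertk, a lysosomal protein and a receptor for engulfing dead cells, rose by 0.82 ± 0.20 (adjusted p = 0.00192) and 0.75 ± 0.18 (adjusted p = 0.00124). Ighm, the immunoglobulin heavy chain of B cells, was at 5.71, 11.4 and 8.95 CPM in sham and 1.60, 2.07 and 1.87 CPM at 6 h, with no overlap (log2 difference -2.23 ± 0.25, adjusted p = 1.36e-07). Of 9 tested B cell genes 3 fell and none rose. Of 9 T and NK cell genes 2 fell and none rose, a share close to the 22.9% of all genes. The number that fell was 0 to 3 with a library left out and 0 with limma-voom or library totals alone, and the sum of all 15 listed genes, 4.86 to 12.9 CPM in sham and 3.67 to 4.97 CPM at 6 h, overlapped between the groups. The 7 tested genes of red cells were not called (median 0.24, and -0.03 without 6 h replicate 1), but 3 rose without sham replicate 3, and of 6 tested platelet genes 3 rose, among them Ppbp and Pf4, with 2.53 ± 0.43 (adjusted p = 4.01e-05) and 1.01 ± 0.21 (adjusted p = 0.000462). Whether cell numbers moved with these values was not tested.

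**Figure D2:**
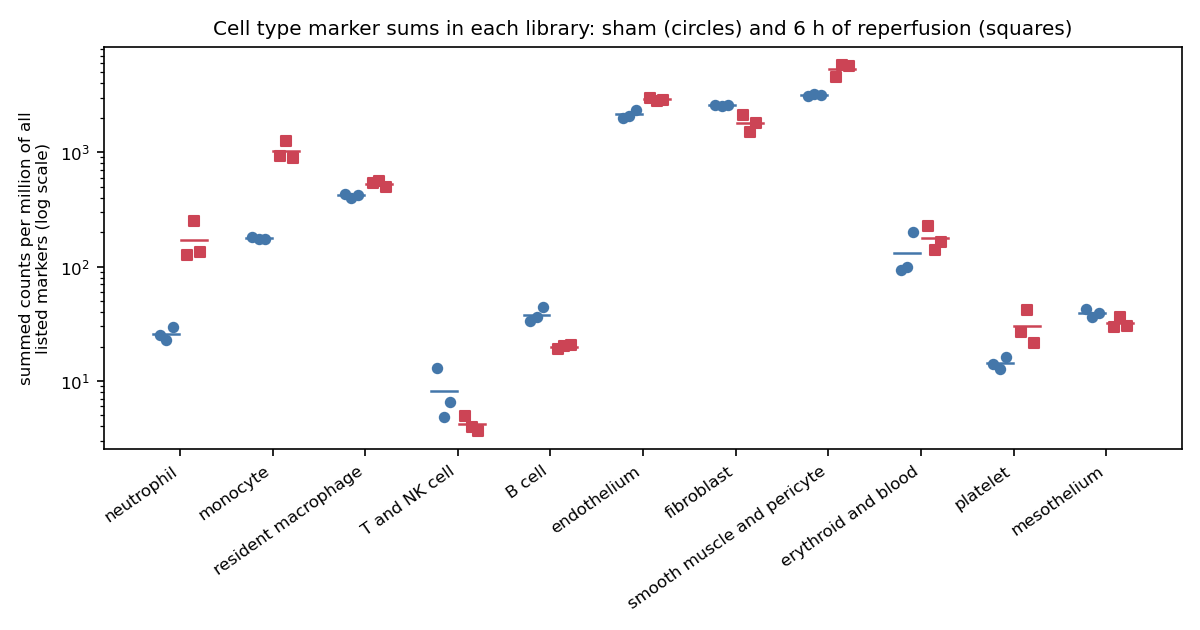
Summed CPM (log scale) of all listed markers of 11 cell types in each sham library (circles) and each library at 6 h of reperfusion (squares), with lines at the means. Neutrophil markers summed to 22.7 to 29.5 CPM in sham and 127 to 249 CPM at 6 h, while the red cell, T and NK cell and mesothelium sums of the groups overlapped. The smooth muscle and pericyte sum includes Des, also a cardiomyocyte gene, at 1338 CPM in sham with a log2 difference of 1.56. Of the 14 genes in that sum 5 rose and 4 fell (median log2 difference -0.06).

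Adhesion genes of activated endothelium rose strongly, and interferon genes did not share that direction. Of 18 adhesion and extravasation genes 10 rose and 3 fell (median 0.53). Selp, the P-selectin that starts leukocyte rolling, was at 0.0642, 0.274 and 0.160 CPM in sham and 13.1, 18.96 and 13.1 CPM at 6 h (log2 difference 6.45 ± 0.51, adjusted p = 1.13e-09), and Sele, the E-selectin, rose by 3.86 ± 0.37 (adjusted p = 1.77e-08). Itgam, the alpha chain of the myeloid integrin Mac-1, rose by 2.54 ± 0.23 (adjusted p = 5.59e-09), and Itga4, an integrin chain of lymphocytes and monocytes, fell by 1.58 on the log2 scale (adjusted p = 7.48e-05). Among innate sensing receptors and inflammasome genes 11 of 25 rose and 3 fell, or 1 or 2 with any 1 library left out (median 0.46). Clec4e, a receptor that senses dead cells, and Nlrp3, the inflammasome sensor, rose by 5.12 ± 0.62 (adjusted p = 4.63e-07) and 4.10 ± 0.49 (adjusted p = 4.03e-07). In the interferon list 1 of 26 genes rose (0 to 2 with a library left out) and 6 fell, with a median of -0.18 that ranged from -0.52 without 6 h replicate 1 to 0.06 without 6 h replicate 3. The number that fell was 11 without 6 h replicate 1, and 6 of 26 is close to the 22.9% of all genes that fell. Iigp1, an interferon-induced GTPase, was at 173, 154 and 313 CPM in sham and 76.5, 34.8 and 31.5 CPM at 6 h (log2 difference -2.16 ± 0.46, adjusted p = 0.00047). For Selp and Iigp1 the groups did not overlap, in opposite directions. Psmb9, a subunit of the immunoproteasome, fell from 9.85 ± 0.911 to 4.52 ± 1.16 CPM (log2 difference -1.12 ± 0.26, adjusted p = 0.000965). Of 16 endothelial identity genes 6 rose and 1 fell, or 2 without 6 h replicate 3 (median 0.37, and 0.21 without 6 h replicate 1), with Cdh5 at 295 and 337 CPM and not called (log2 difference 0.19, adjusted p = 0.162).

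Atf3 and other immediate early genes were still above sham at 6 h, although many were below their level at 3 h. Atf3, which encodes an ATF/CREB family regulator switched on by many stresses (chromosome 1, 191170296 to 191218039), was at 8.86, 8.08 and 8.47 CPM in sham and 61.3, 145 and 80.2 CPM at 6 h. The groups did not overlap, and the log2 difference was 3.49 ± 0.54 (adjusted p = 1.19e-05). Its mean was 464 ± 118 CPM at 3 h and 16.5 ± 10.6 CPM at 12 h, so that the 6 h level was lower than at 3 h with a log2 difference of -2.28 (adjusted p = 0.00119), and the 12 h level was lower than at 6 h, with -2.54 (adjusted p = 0.00168). Of 31 immediate early genes 24 rose above sham and none fell (median 1.68). Against 3 h, 12 of the 31 were lower and 3 higher. Of all 15128 genes 27.9% differed from 3 h, 1996 lower and 2227 higher. Ptgs2, which encodes cyclooxygenase 2, was one of the genes higher than at 3 h: it was at 0.835, 0.890 and 1.76 CPM in sham and 30.04, 39.4 and 25.9 CPM at 6 h (log2 difference 4.80 ± 0.46, adjusted p = 1.48e-08; 6 h minus 3 h 1.26, adjusted p = 0.00787). The call against 3 h was lost without 3 h replicate 2 (adjusted p = 0.0562). Ier3, an early survival gene, rose by 3.54 ± 0.28 (adjusted p = 1.31e-09) over sham and by 1.09 (adjusted p = 0.0024) over 3 h. Nr4a1, an orphan nuclear receptor, was at 51.5 and 46.7 CPM and not called (log2 difference -0.14, adjusted p = 0.837).

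Heat shock genes rose in 13 of 22 cases and fell in 1, or 0 without sham replicate 1 or 3 or 6 h replicate 1 (median 0.70). Hspb1, a small heat shock protein that binds actin and desmin, was at 158, 123 and 126 CPM in sham and 992, 1910 and 1123 CPM at 6 h (log2 difference 3.31 ± 0.26, adjusted p = 1.1e-09). Hspa1a and Hspa1b, near-identical copies of inducible HSP70 among which reads cannot be split with certainty, were at 45.6, 247 and 80.8 CPM and 58.4, 286 and 76.7 CPM at 6 h, against means of 1.60 and 1.89 CPM in sham. Replicate 2 was more than 3 times as high as either other library for both copies, and without it their log2 differences of 6.22 and 6.21 became 5.25 and 5.15. In the list of unfolded protein response and integrated stress genes 17 of 32 genes rose and 5 fell, or 3 without 6 h replicate 3 (median 0.52). Atf4, the transcription factor of the integrated stress response, was at 34.5, 31.6 and 44.4 CPM in sham and 148, 269 and 179 CPM at 6 h (log2 difference 2.43 ± 0.20, adjusted p = 2.33e-09). For Hspb1 and Atf4 all 3 libraries at 6 h lay above sham. Asns and Psat1, targets of ATF4 in amino acid synthesis, rose by 1.77 ± 0.30 (adjusted p = 3.98e-05) and 2.03 ± 0.27 (adjusted p = 2.16e-06). Chac1, another of its targets, which degrades glutathione, fell from 6.53 ± 0.703 to 2.72 ± 0.911 CPM (log2 difference -1.26 ± 0.38, adjusted p = 0.00837), and Vldlr, a lipoprotein receptor on the same list, fell by 1.32 on the log2 scale (adjusted p = 8.87e-08).

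Genes listed here as ferroptosis defence rose more often than they fell, while FANCD2 transcripts were scarce. Of the 25 genes listed as defence 13 rose, 3 fell and 9 were not called (median 0.38). Of 24 genes listed as favouring ferroptosis 9 rose, 8 fell and 7 were not called (median 0.03, and 0.14 without 6 h replicate 2). The part each gene plays in ferroptosis was not tested. The defence list counts Atf3 among the genes that rose. The other list counts Ptgs2 and Hmox1 among its 9, with its largest log2 differences, 4.80 and 4.53, and Chac1 and Steap3 among its 8. Slc7a11, the cystine importer that feeds glutathione synthesis and holds 2 TTGCATCA matches in the promoter printed above, was at 0.257, 0.137 and 0.240 CPM in sham and 3.49, 8.11 and 2.99 CPM at 6 h (log2 difference 4.48 ± 0.57, adjusted p = 9.75e-07). No sham library reached the lowest 6 h library, replicate 2 was the highest, and without it the difference was 3.89. Gpx4, the peroxidase that removes lipid hydroperoxides, was at 288, 303 and 319 CPM in sham and 343, 316 and 327 CPM at 6 h and was not called (log2 difference 0.12 ± 0.13, adjusted p = 0.489). Fancd2, a protein of the Fanconi anaemia crosslink repair pathway (chromosome 6, 113531682 to 113597017), was at 0.449, 0.479 and 0.720 CPM in sham and 0.414, 0.610 and 0 CPM at 6 h, from 23 and 17 reads over the 3 libraries of each group. The difference of -0.65 ± 0.83 (adjusted p = 0.544) was not detectable at this depth. In the Fanconi list 2 of 20 genes rose and 7 fell (median -0.44): Brip1, the helicase partner of BRCA1, fell from 2.56 ± 0.224 to 0.568 ± 0.352 CPM (log2 difference -2.16 ± 0.40, adjusted p = 0.000106), while Slx4, a nuclease scaffold, rose by 1.06 ± 0.20 (adjusted p = 0.0001).

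Oxidative stress genes under the factor NRF2 rose in 12 of 24 cases and fell in 3 (median 0.45). Hmox1, the haem-degrading enzyme, was at 7.58, 5.96 and 7.995 CPM in sham and 180.1, 207 and 110.2 CPM at 6 h (log2 difference 4.53 ± 0.47, adjusted p = 5.9e-08). Txnrd1, which recycles thioredoxin, rose from 56.8 ± 6.45 to 283 ± 67.2 CPM (log2 difference 2.32 ± 0.15, adjusted p = 5.8e-11). Srxn1, which restores oxidised peroxiredoxins and holds 2 TGANTCA matches in the promoter above, was at 15.7, 13.7 and 18.2 CPM in sham and 55.4, 92.4 and 59.6 CPM at 6 h (log2 difference 2.12 ± 0.19, adjusted p = 4.18e-09). In all 3 genes every library at 6 h lay above every sham library. Nqo1, a classical target of the same factor, fell from 36.7 ± 2.80 to 25.5 ± 4.09 CPM (log2 difference -0.53 ± 0.16, adjusted p = 0.00788). Scd2, a fatty acid desaturase of the defence list, fell by 1.89 on the log2 scale (adjusted p = 1.74e-05), and Steap3, an endosomal iron reductase of the list that favours ferroptosis, by 1.16 (adjusted p = 3.6e-07). Metallothionein 2, a metal-binding antioxidant encoded by Mt2, was at 38.9, 19.8 and 63.1 CPM in sham and 1292, 1409 and 870.1 CPM at 6 h (log2 difference 4.88 ± 0.41, adjusted p = 2.8e-09).

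Genes of wall stress and of the Z-disc and costamere made some of the largest gains in CPM. Of 20 fetal and wall stress genes 13 rose and 2 fell, or 1 without sham replicate 1 or 6 h replicate 2 (median 2.51). Flnc, the muscle filamin that crosslinks actin at the Z-disc (chromosome 6, 29433256 to 29461883), was at 495, 354 and 315 CPM in sham and 3833, 10552 and 5872 CPM at 6 h. It had the largest gain in CPM of all genes, with a log2 difference of 4.12 ± 0.43 (adjusted p = 4.77e-08), and the lowest 6 h library was above every sham library. Ankrd1, a titin-binding stress protein, was at 537, 739 and 682 CPM in sham and 3868, 7170 and 6635 CPM at 6 h (log2 difference 3.17 ± 0.23, adjusted p = 4.64e-10), and Xirp1, an actin-binding repair protein of the intercalated disc, rose by 3.52 ± 0.32 (adjusted p = 9.42e-09). Nppb, the B-type natriuretic peptide, was at 84.9, 84.1 and 43.6 CPM in sham and 709, 1288 and 1252 CPM at 6 h (log2 difference 3.93 ± 0.41, adjusted p = 5.66e-08), and Nppa, the A-type, rose by 2.69 ± 0.35 (adjusted p = 1.13e-06). For Ankrd1 and Nppb the groups did not overlap. Des, the muscle intermediate filament, and Hspb7, a cardiac small heat shock protein, rose from 1338 ± 34.2 to 3938 ± 783 CPM and from 1253 ± 114 to 3632 ± 396 CPM, with log2 differences of 1.56 ± 0.14 (adjusted p = 6.04e-09) and 1.54 ± 0.13 (adjusted p = 1.67e-09). Of 22 core sarcomere genes 1 rose (Des), 3 fell and 18 were not called (median 0.07). The number that rose was 2 or 3 without sham replicate 2 or 3, 6 with duplicates removed or with only the 6 libraries in the fit, and 7 with library totals alone, and the number that fell was 2 to 6. Nebl, a Z-disc nebulin relative, was at 462, 432 and 443 CPM in sham and 202, 163 and 221 CPM at 6 h (log2 difference -1.19 ± 0.17, adjusted p = 3.64e-06), and Ttn, the giant elastic filament, fell by 0.51 on the log2 scale (adjusted p = 0.00947). Myh7 and Acta1, textbook fetal genes, were not called, with -0.11 (adjusted p = 0.578) and 0.41 (adjusted p = 0.288).

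Many ion channel genes fell. Of 30 tested 14 fell, 3 rose and 13 were not called, with a median log2 difference of -0.47. Kcnj3, a subunit of the acetylcholine-gated potassium channel, was at 68.3, 63.7 and 69.6 CPM in sham and 11.1, 6.52 and 9.65 CPM at 6 h. Its groups were far apart, with a log2 difference of -2.88 ± 0.20 (adjusted p = 2.74e-10). Kcnj2, the main subunit of the inward rectifier that holds the resting potential, was at 37.9, 51.7 and 56.5 CPM in sham and 12.6, 7.93 and 16.1 CPM at 6 h (log2 difference -1.99 ± 0.23, adjusted p = 1.86e-07). Kcnv2, a silent potassium channel subunit, and Scn4a, the sodium channel best known from skeletal muscle, fell by 1.83 and 1.70 on the log2 scale (adjusted p = 8.04e-07 and 1.17e-05). Kcnj8, a potassium channel subunit, and Gjc1, which encodes connexin 45, were among those that rose. They differed by 0.44 and 0.38 and lost the call without sham replicate 1 (adjusted p = 0.0538 and 0.0923). Without 6 h replicate 1 or 3 the adjusted p of Gjc1 was 0.0547 or 0.0681. Gja1, which encodes connexin 43, and Cacna1c, the pore of the L-type calcium channel, were not called, with 0.27 (adjusted p = 0.325) and -0.30 (adjusted p = 0.106). Against 3 h, 13 of the 30 genes were lower at 6 h and 2 higher, while 1996 of all 15128 genes were lower and 2227 higher.

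Calcium handling and beta-adrenergic genes showed the same direction, with 10 of 23 lower, 2 higher and 11 not called (median -0.18). Pln, phospholamban, the brake on the calcium pump of the sarcoplasmic reticulum, was at 6917, 7183 and 7038 CPM in sham and 2946, 2285 and 3257 CPM at 6 h (log2 difference -1.32 ± 0.17, adjusted p = 1.35e-06). The sham libraries lay within a narrow band and all 3 libraries at 6 h were below it. Adra1b, an alpha-adrenergic receptor, and Pde3a, a phosphodiesterase that limits cAMP, fell by 0.93 and 0.82 on the log2 scale (adjusted p = 0.000934 and 0.00168). The 2 genes that rose, Adrb1, the main cardiac beta-adrenergic receptor, and Grk5, a kinase that desensitises it, had log2 differences of 0.96 ± 0.17 (adjusted p = 9.07e-05) and 1.01 ± 0.18 (adjusted p = 7.84e-05). Of 22 cardiac transcription factor genes 8 fell and 3 rose (median -0.14, and -0.07 to -0.25 with a library left out). The number that rose was 0 without sham replicate 3 and 1 or 2 without any 1 of the other 5 libraries. Prox1, Klf15 and Mef2a fell by 1.18, 1.10 and 0.94 on the log2 scale (adjusted p = 1.35e-05, 0.001 and 6.34e-06). Gata4 was at 98.4 and 112 CPM and was not called (log2 difference 0.18, adjusted p = 0.279). Ppargc1a, the coactivator that drives mitochondrial biogenesis, was at 147, 138 and 136 CPM in sham and 93.6, 38.5 and 68.1 CPM at 6 h (log2 difference -1.07 ± 0.25, adjusted p = 0.000961), with replicate 2 lowest.

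**Figure D3:**
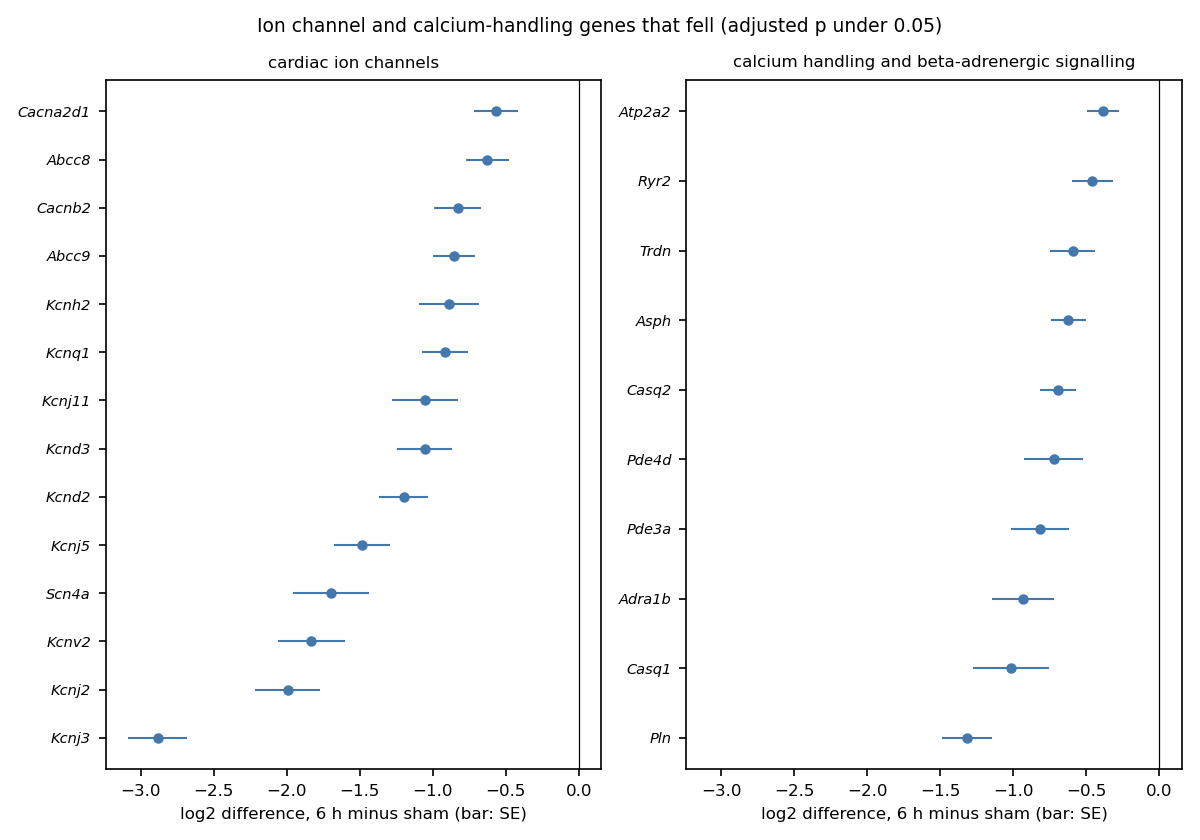
Log2 difference between 6 h of reperfusion and sham (x axis, bars are standard errors) for the 14 ion channel genes (left) and the 10 calcium handling and adrenergic genes (right) that fell at an adjusted p under 0.05. Kcnj3 lies lowest at -2.88, and Pln is the lowest of the right panel at -1.32.

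The median differences of the energy metabolism lists were small. Of 33 genes of fatty acid uptake and oxidation 10 rose and 4 fell (median -0.03). Pdk4, the kinase that shuts off pyruvate oxidation, was at 1942, 1596 and 1630 CPM in sham and 4743, 5819 and 3751 CPM at 6 h (log2 difference 1.47 ± 0.21, adjusted p = 5.94e-06). Angptl4, a secreted inhibitor of lipoprotein lipase, and Plin2, a lipid droplet coat protein, rose by 3.59 ± 0.43 (adjusted p = 4.37e-07) and 1.76 ± 0.18 (adjusted p = 3.32e-08), while Cpt2, an enzyme of mitochondrial fatty acid import, fell by 0.62 (adjusted p = 7.56e-05). Amino acid and ketone catabolism fell in 11 of 20 genes and rose in 1, or 0 without sham replicate 1 or 3 or 6 h replicate 2 (median -0.29), and the number that fell was 7 without any 1 of sham replicates 2 and 3 and 6 h replicates 2 and 3. Ppm1k, the phosphatase that activates branched-chain keto acid oxidation, was at 110.0, 143 and 122 CPM in sham and 38.4, 32.3 and 38.1 CPM at 6 h (log2 difference -1.79 ± 0.14, adjusted p = 1.29e-09). The citric acid cycle list had 5 of 25 lower, or 2 without 6 h replicate 2 and 10 with only the 6 libraries in the fit, and none higher (median -0.15). Nuclear respiratory chain subunits had 8 of 30 higher, or 5 without sham replicate 3, and 2 lower, or 0 when any 1 library was left out (median 0.10). The 5 of 25 lower and the 8 of 30 higher were close to the shares of all genes, 22.9% lower and 24.6% higher. In the glycolysis and hypoxia list 14 of 33 rose and 3 fell (median 0.27, and 0.15 without 6 h replicate 2). Slc16a3, a lactate exporter, and Pfkp, a phosphofructokinase, rose by 2.61 ± 0.37 (adjusted p = 4.64e-06) and 1.42 ± 0.13 (adjusted p = 5.19e-09). Pfkfb2, the cardiac regulator of phosphofructokinase, fell from 61.3 ± 10.5 to 15.8 ± 3.50 CPM (log2 difference -1.95 ± 0.22, adjusted p = 1.76e-07).

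Transcripts of the mitochondrial genome were lower at 6 h in unique reads with duplicates kept: 7 of 13 tested protein genes fell and none rose (median -0.54). mt-Co1, a catalytic subunit of complex IV, was at 113740, 121380 and 133660 CPM in sham and 75288, 79235 and 85020 CPM at 6 h (log2 difference -0.62 ± 0.19, adjusted p = 0.00875), and mt-Nd2, of complex I, had a log2 difference of -1.02 ± 0.21 (adjusted p = 0.000339). These values depended on how reads were counted. Duplicates made up 92.2% of mt-Co1 reads in sham and 88.0% at 6 h, and with duplicates removed the difference in mt-Co1 was -0.04 (adjusted p = 0.81), that in mt-Nd2 was -0.38 (adjusted p = 0.0349) and 3 of 13 genes fell. Unique reads were only 7.78% of all reads of mt-Co3 and 7.22% of those of mt-Atp6. In unique reads these genes were not called (log2 difference 0.52, adjusted p = 0.351 and 0.46, adjusted p = 0.576), and with multiply mapped reads included they reversed to -0.55 (adjusted p = 0.019) and -0.73 (adjusted p = 0.00614), and 12 of 13 genes fell.

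Most genes of the matrix turnover list rose, while several fibrillar collagens fell. Of 25 matrix turnover genes 18 rose and 4 fell (median 1.95). Has1, a hyaluronan synthase, had 1 read over the sham group against 454 at 6 h, a ratio of 393 (exact 95% counting interval 70.1 to 15540), and Serpinb2, a serine protease inhibitor of the plasminogen system, had 0 reads in sham and 117 at 6 h, at least 33.7-fold higher with sham set to 3 reads over the group. Its values at 6 h were 1.24, 4.69 and 1.18 CPM, with replicate 2 highest. Of the 4 that fell, Timp2 and Mmp2, an inhibitor and its protease, did so by 0.97 and 0.78 on the log2 scale (adjusted p = 3.55e-06 and 0.00133). In the list of collagens and matricellular proteins 11 of 24 rose and 9 fell (median 0.05, and -0.07 without 6 h replicate 3). Col3a1, a fibrillar collagen, was at 438, 406 and 429.8 CPM in sham and 169, 69.6 and 126 CPM at 6 h (log2 difference -1.80 ± 0.33, adjusted p = 0.000111), and Col1a2, Col5a1 and the collagen-binding Lum fell by 1.10, 1.27 and 1.77 (adjusted p = 0.000626, 0.000202 and 1.11e-07). Thbs1 and Tnc, matricellular proteins of injured tissue, rose by 4.17 ± 0.40 (adjusted p = 1.54e-08) and 3.86 ± 0.36 (adjusted p = 1.32e-08). Among 14 fibroblast markers 4 rose and 7 fell (median -0.36), with Pdgfra and Mfap5 higher (log2 difference 0.39, adjusted p = 0.00718 and 1.09, adjusted p = 1.43e-05), and the summed markers went from 2549 to 2602 CPM in sham to 1503 to 2116 CPM at 6 h. The part of fibroblast content in the collagen values was not tested.

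Growth factors of the EGF family and the angiopoietins changed by large amounts. Of 30 growth factor and receptor genes 16 rose and 5 fell (median 0.79). Hbegf, a heparin-binding ligand of the EGF receptor, was at 17.4, 14.2 and 13.9 CPM in sham and 415, 741 and 477 CPM at 6 h (log2 difference 5.16 ± 0.37, adjusted p = 3.64e-10). Ereg, another ligand of that receptor, had 3 reads over the sham group against 1006 at 6 h, a ratio of 289.9 (exact 95% counting interval 98.9 to 1408). Angpt1, the stabilising ligand of the endothelial receptor TIE2, was at 65.2, 45.4 and 55.3 CPM in sham and 9.11, 3.90 and 6.23 CPM at 6 h (log2 difference -3.11 ± 0.27, adjusted p = 4.18e-09). Its antagonist Angpt2 was at 5.65, 3.08 and 5.76 CPM in sham and 16.3, 26.3 and 17.3 CPM at 6 h (log2 difference 2.05 ± 0.27, adjusted p = 1.69e-06), and the receptor gene Tek fell from 76.2 ± 8.59 to 43.4 ± 11.7 CPM (log2 difference -0.81 ± 0.16, adjusted p = 0.000195). The ligands thus moved in opposite directions, with no overlap between the groups in either. Inhba, the activin A subunit, rose by 4.88 ± 0.62 (adjusted p = 9.37e-07), with 5.64 without sham replicate 1, and Igf1, insulin-like growth factor 1, fell by 1.86 on the log2 scale (adjusted p = 1.34e-06). Vegfa, the main angiogenic factor, was at 293, 302 and 255 CPM in sham and 190.0, 179 and 193 CPM at 6 h (log2 difference -0.60 ± 0.15, adjusted p = 0.00265).

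Among the 36 pathway lists ribosome biogenesis had the largest share of members that rose, 22 of 25, with none lower (median 1.41). These genes process ribosomal RNA in the nucleolus. Rrp12, a pre-ribosome export factor, was at 21.8, 18.3 and 20.5 CPM in sham and 133, 189.6 and 162 CPM at 6 h (log2 difference 3.00 ± 0.19, adjusted p = 5.8e-11). Nop2 and Nop56, which modify ribosomal RNA, rose by 2.36 ± 0.18 (adjusted p = 7.06e-10) and 1.99 ± 0.16 (adjusted p = 1.91e-09). For these genes the groups did not overlap. Of the 25 genes 24 were higher than at 3 h, against 2227 of all 15128 genes. Srm, the spermidine synthase, rose by 2.23 ± 0.21 (adjusted p = 1.42e-08), within a polyamine, NAD and methyl list of which 11 of 20 rose and 4 fell (median 0.64). Nmrk2, a muscle kinase of NAD synthesis from nicotinamide riboside, was at 12.1, 18.8 and 15.1 CPM in sham and 65.8, 193 and 309.6 CPM at 6 h (log2 difference 3.63 ± 0.40, adjusted p = 1.13e-07), and Nmnat1, the nuclear NAD synthase, fell by 1.12 on the log2 scale (adjusted p = 2.17e-06). Arg1, the arginase, had 3 reads over the sham group against 265 at 6 h, a ratio of 76.4 (exact 95% counting interval 25.9 to 373), and replicate 2 held most of these reads, with 1.12, 13.6 and 1.43 CPM in the 3 libraries.

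**Figure D4:**
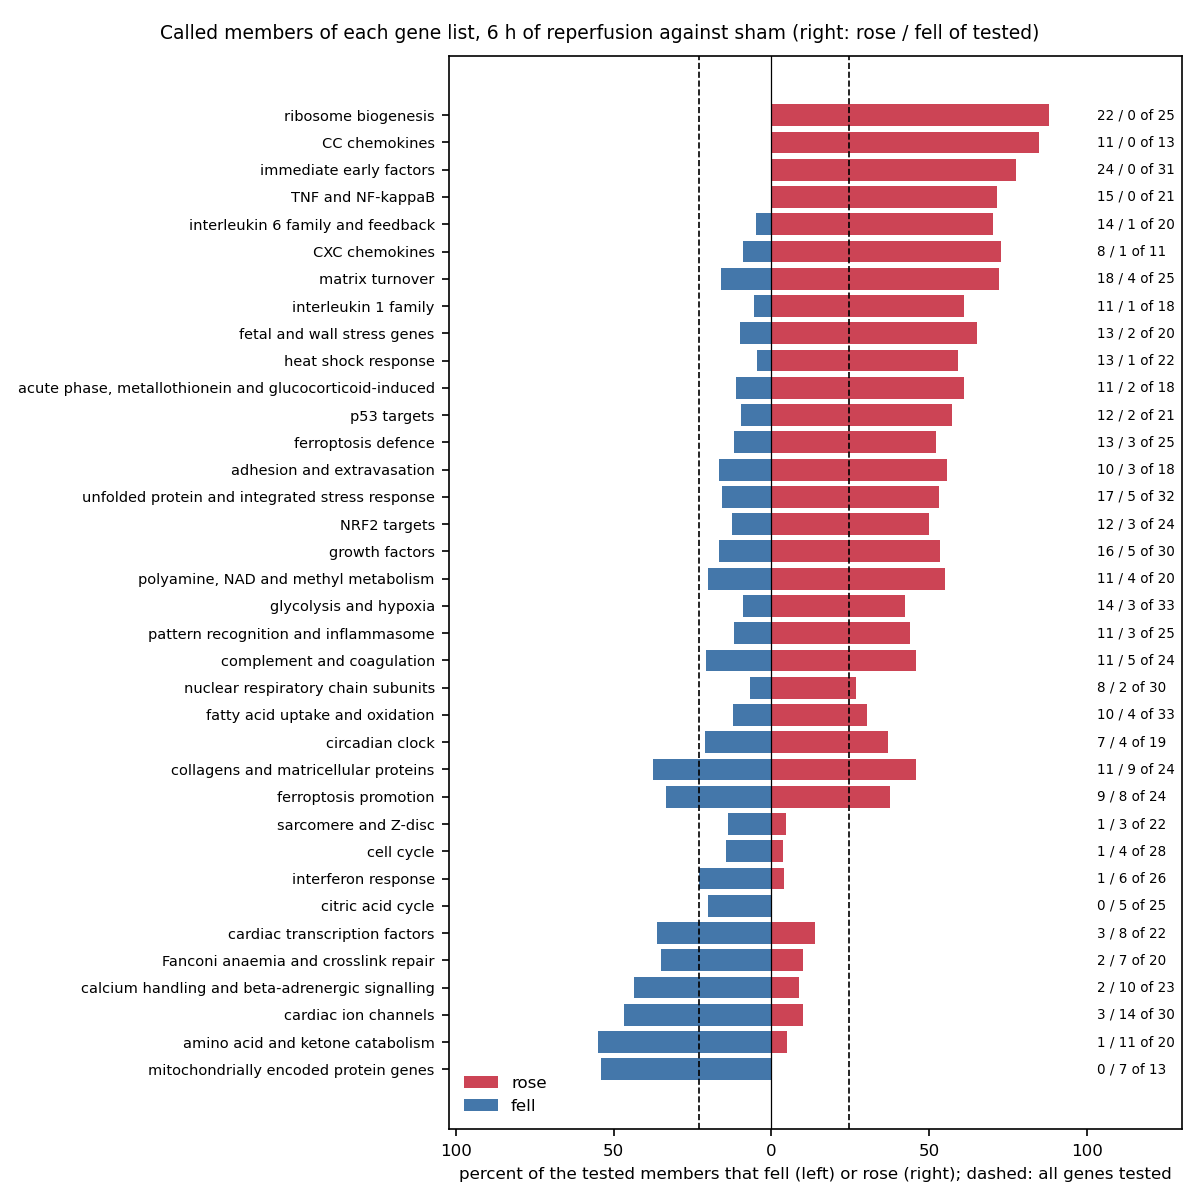
Percent of the tested members of 36 gene lists that rose (right) or fell (left) at 6 h of reperfusion against sham, with counts at the right edge. Dashed lines mark the shares over all genes, 24.6% higher and 22.9% lower. Ribosome biogenesis (22 of 25 higher) is at the top and mitochondrially encoded genes (7 of 13 lower) at the bottom.

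Acute phase genes rose with the cytokines. Of 18 tested genes on the acute phase, metallothionein and glucocorticoid list 11 rose and 2 fell, or 1 without sham replicate 3 or 6 h replicate 1 or 3 (median 1.71). Another 8 listed genes were under the filter on low counts, which genes scarce in sham could pass through another group alone. Ptx3, a soluble pattern recognition protein induced by interleukin 1, was at 0.385, 0.411 and 0.400 CPM in sham and 157, 184 and 78.2 CPM at 6 h (log2 difference 8.43 ± 0.61, adjusted p = 3.64e-10), and no sham library reached 1 CPM. Lcn2, a siderophore-binding lipocalin, was at 6.10, 1.10 and 2.80 CPM in sham and 142, 110.4 and 52.6 CPM at 6 h (log2 difference 4.91 ± 0.45, adjusted p = 7.27e-09, and 5.74 without sham replicate 1). For Ptx3 and Lcn2 every library at 6 h was above every sham library. Saa3, an acute phase apolipoprotein, had 2 reads over the sham group against 1169 at 6 h, a ratio of 505 (exact 95% counting interval 139.6 to 4178), and its values at 6 h, 8.34, 55.97 and 6.85 CPM, were highest in replicate 2. Of 19 circadian genes 7 rose and 4 fell, or 2 without sham replicate 1 or 2 or 6 h replicate 2 or 3 (median 0.57, and 0.18 without 6 h replicate 3). Over all genes 24.6% rose and 22.9% fell, so that the 4 that fell were close to that share. Bhlhe41 and Cry2, repressors of the clock, rose by 2.44 ± 0.23 (adjusted p = 1.61e-08) and 1.28 ± 0.24 (adjusted p = 0.000118), and Hlf, a clock output factor, fell by 1.53 (adjusted p = 0.000223). Sham replicate 3 stood apart from the other sham libraries in much of this list. Hlf was at 18.9, 23.2 and 49.9 CPM in the 3 sham libraries, Cry2 at 18.3, 26.6 and 38.1, the repressor gene Per2 at 6.55, 9.18 and 29.3 and Tef, another output factor, at 66.8, 104 and 224, each highest in that library. Without it the differences of Hlf and Cry2 from sham were -0.99 and 1.58, and both stayed called (adjusted p = 0.00518 and 3.79e-05). Arntl, the positive arm of the clock, was lowest there, at 30.6, 23.2 and 2.48 CPM in sham and 3.84, 6.22 and 6.60 CPM at 6 h, and so was its partner Clock, at 80.1, 71.4 and 47.3 CPM in sham. The call for Arntl (log2 difference -1.77 ± 0.68, adjusted p = 0.0348) was lost without any 1 of sham replicates 1 and 2 or of the 3 libraries at 6 h, with adjusted p of 0.0579 to 0.187, and the collection times needed to read these genes are not in the labels.

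Expression at 6 h was also compared with the groups just before and after it. The 3 h and 12 h groups had the same strain and the same ischemia. At 3 h itself 35.3% of all genes differed from sham, by the same test. Between 6 h and 3 h 4223 genes differed (27.9%), 2227 higher and 1996 lower at 6 h, and between 12 h and 6 h 1992 differed (13.2%), 982 higher and 1010 lower at 12 h. The latter count dropped to 786 when 6 h replicate 2 was left out, and to 1140 or 1186 when replicate 1 or 2 of 12 h was. A group of 361 genes was higher at 6 h than in sham, at 3 h and at 12 h, and 328 were lower than in all 3. Hbegf was among the high group, with 151 ± 28.5 CPM at 3 h and 84.2 ± 47.1 CPM at 12 h (6 h minus 3 h 1.85, adjusted p = 0.000143, 12 h minus 6 h -2.69, adjusted p = 1.8e-05). Igsf11, an adhesion protein of the immunoglobulin family, was at 0.449, 0.822 and 0.400 CPM in sham, 4.79, 13.96 and 10.3 CPM at 6 h and 1.48 ± 0.529 CPM at 12 h. Rasl11b, a small GTPase, was at 10.3, 10.7 and 12.8 CPM in sham and 166, 275 and 405 CPM at 6 h, and Tiam2, an activator of the GTPase RAC1, at 7.83, 4.52 and 5.04 CPM in sham and 28.9, 64.99 and 41.4 CPM at 6 h, with log2 differences from sham of 4.65 ± 0.34 (adjusted p = 4.81e-10) and 2.95 ± 0.31 (adjusted p = 4.89e-08). Angpt1 was in the low group, with -1.72 (adjusted p = 5.18e-05) against 3 h and 2.67 (adjusted p = 3.79e-06) from 6 h to 12 h.

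**Figure D5:**
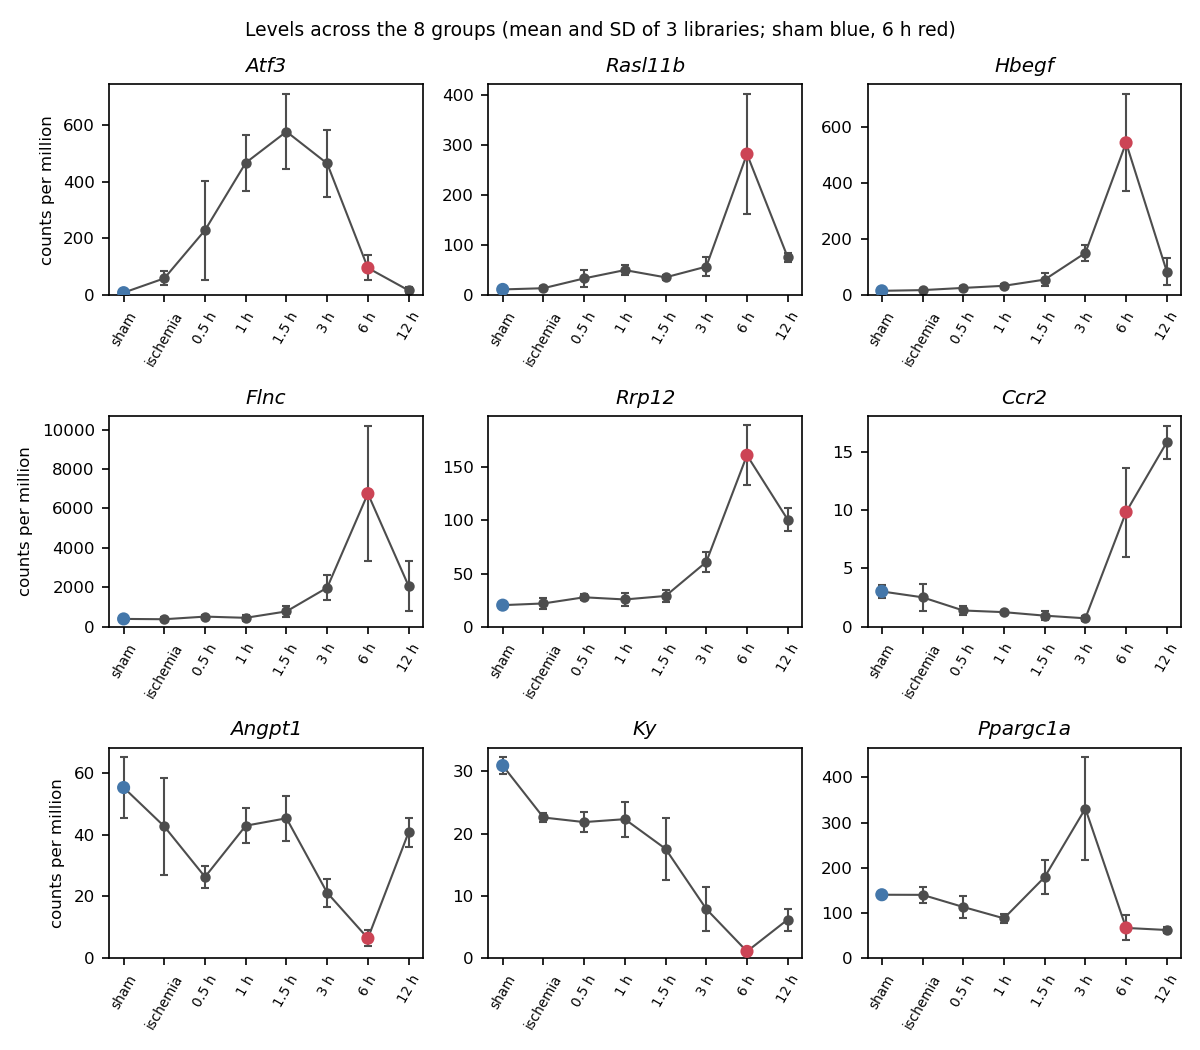
Mean normalised CPM (y axis, bars are SD, n = 3) of 9 genes in the 8 groups in the order sham, ischemia and 0.5 to 12 h of reperfusion, with sham in blue and 6 h in red. Rasl11b, Hbegf, Flnc and Rrp12 are highest at 6 h, Angpt1 and Ky are lowest there, and Atf3 is already below its level at 3 h.

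Several of the deepest falls were in genes outside the lists. Ky, kyphoscoliosis peptidase, a muscle protein that binds filamin C, was at 29.5, 31.2 and 32.1 CPM in sham and 1.60, 0.488 and 1.12 CPM at 6 h. It fell by 4.84 on the log2 scale (SE 0.33, adjusted p = 1.28e-10), while Flnc was the gene with the largest gain, and it was at 7.89 ± 3.46 CPM at 3 h and 6.19 ± 1.77 CPM at 12 h. Gal3st3, a sulfotransferase of glycans, was at 19.1, 18.5 and 17.5 CPM in sham and 2.13, 0.793 and 1.99 CPM at 6 h (log2 difference -3.48 ± 0.26, adjusted p = 6.45e-10), and Htra3, a secreted serine protease, at 78.4, 81.4 and 83.5 CPM in sham and 20.7, 6.22 and 9.59 CPM at 6 h (log2 difference -2.73 ± 0.33, adjusted p = 4.51e-07, and -3.36 without 6 h replicate 1). Both were higher again at 12 h than at 6 h, by 2.30 (adjusted p = 1.3e-05) and 2.00 (adjusted p = 0.000264). Tet1, which oxidises methylcytosine in DNA, was at 9.31, 12.9 and 10.95 CPM in sham and 1.30, 0.488 and 1.12 CPM at 6 h (log2 difference -3.50 ± 0.36, adjusted p = 3.81e-08). Srrm4, a splicing factor known from neurons, fell from 21.9 ± 4.12 to 2.69 ± 0.221 CPM (log2 difference -3.02 ± 0.24, adjusted p = 9.43e-10), and Spon2, a secreted matrix protein, from 9.57, 6.71 and 2.08 CPM to 0.177, 0.0610 and 0.374 CPM (log2 difference -4.88 ± 0.93, adjusted p = 0.000153, and -5.60 without 6 h replicate 3). Sham values of Spon2 spread widely, while for Ky, Gal3st3 and Htra3 the 3 sham libraries were close together.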

How the data were processed

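Per the labels, RNA from flash-frozen hearts was sequenced from 24 libraries in 8 groups of 3, and the submitters' processing notes name the genome build mm10. Per the file headers, the authors deposited whole-number counts per Ensembl gene: unique reads with duplicates kept, used here, and versions without duplicates or with multiply mapped reads, used as alternatives. An aligner, a counter and a strand setting were not given in the sources used here, so genes that overlap on opposite strands could share reads. Gene symbols were matched for 98% of 46078 identifiers.

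Counts of all 24 libraries were filtered (filterByExpr, at least 10 reads) and normalised by TMM. They were fitted in edgeR 4.0.16 (R 4.3.3) with 1 term per group and tested by quasi-likelihood with Benjamini-Hochberg adjustment over 15128 genes, called at an adjusted p under 0.05. SE values of log2 differences are from that fit. The steps were run on simulated counts with a common spread for all genes and far fewer changed genes than were called here. That run checks the code only. Alternatives were DESeq2 1.42.0, limma-voom (limma 3.58.1), other scalings, filters and read sets, a replicate block and leaving out libraries. Counting intervals (exact, 95%) and floors cover counting error only.

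The gene lists, the cell type markers and the members were chosen with earlier results of these data known. In every list a gene scarce in sham could pass the filter through another group alone, which favours rises in list counts and medians. Of the 10 listed platelet genes 4 were not tested. Named genes were the 12 largest rises and falls with at least 5 CPM and no overlap, the 6 largest CPM differences, the 6 most extreme at 6 h in each direction, Atf3, Fancd2, Gpx4, Slc7a11, and up to 4 called genes per direction and 2 uncalled genes per list. Marker genes given at their read totals, Ccr2, Neat1, Myh7b, Gem and Ptpn6 were named after their values were seen.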

Additional observations from a re-analysis of the deposited data

Results flagged for a closer look

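Against sham, 49 genes were lower at 3 h of reperfusion and higher at 6 h, and 25 genes were higher at 3 h and lower at 6 h, each at an adjusted p under 0.05 in edgeR's test at both times. The comparison of 3 h with sham, in which 35.3% of genes were called, was added after the data were seen, and both differences share the sham libraries. Ccr2, the monocyte receptor of CCL2, was at 3.02 ± 0.55 CPM in sham, 0.709 ± 0.238 at 3 h and 9.83 ± 3.82 at 6 h (6 h minus 3 h 3.75, adjusted p = 3.02e-07). Neat1, a long noncoding RNA that scaffolds nuclear paraspeckles, went from 490 ± 23.4 CPM in sham to 232 ± 76.2 at 3 h and 1494 ± 410 at 6 h. Ptpn6, the leukocyte phosphatase SHP-1, was at 5.09 ± 1.19, 2.44 ± 1.14 and 10.1 ± 2.95 CPM in the same groups. Ppargc1a was at 140 ± 5.94 CPM in sham, 331 ± 115 at 3 h and 66.7 ± 27.6 at 6 h. Myh7b, a slow muscle myosin gene, was at 89.7 ± 10.2, 178 ± 82.9 and 27.5 ± 6.60 CPM, and Gem, a small GTPase that limits calcium channel traffic, at 6.55 ± 1.04, 19.2 ± 2.78 and 3.70 ± 0.40 CPM (n = 3 in each group). The call for Gem between 6 h and sham (adjusted p = 0.0324) was lost with library totals alone (adjusted p = 0.0503), with limma-voom (0.125) and without any 1 of sham replicates 1 and 3 and 6 h replicates 2 and 3 (0.0587 to 0.11). What moved these genes was not tested.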

How the results depend on the processing

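Over the alternatives in normalization, filter, tool, design and read set, 3561 to 3855 genes were higher and 2978 to 3601 lower at 6 h than in sham, and the share of higher calls ran from 51.2 to 56.1%. Leaving out 1 library of either group gave 3107 to 3517 higher and 2701 to 3247 lower. Between 6 h and 3 h the count was 2765 with only the 6 libraries of both groups in the fit, 2216 with that and a replicate block, and 2830 to 4515 with a library left out. Between 12 h and 6 h it was 1266 with the replicate block in those 6 libraries, and 786 to 1792 with a library left out, where the lowest count came from leaving out 6 h replicate 2, and omitting replicate 1 or 2 of 12 h gave 1140 or 1186. The cause was not tested, beyond the smaller number of libraries in these fits. With all 24 libraries the replicate block gave 3672 higher, 3405 lower, 4080 and 1880. Same-numbered libraries of sham and 6 h did not deviate together (r = -0.0567, -0.0321 and -0.0647), so the numbers were not taken as pairs. With multiply mapped reads mt-Atp6 and mt-Co3 reversed to -0.73 and -0.55. Median differences of the interferon, ferroptosis promotion, fatty acid, collagen, smooth muscle, ventricular cardiomyocyte and red cell lists changed sign under at least 1 setting. Depth limits genes with few reads, such as Fancd2 with 23 and 17 reads per group.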

Other observations

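More genes on a list of p53 targets rose than fell, while most cell cycle genes were not called. Control by p53 was not tested. Of 21 p53 target genes 12 rose and 2 fell (median 0.88). Gadd45g and Gadd45a, stress-induced genes of growth arrest, rose by 2.49 ± 0.36 (adjusted p = 6.43e-06) and 1.70 ± 0.27 (adjusted p = 1.51e-05), and Btg2, an antiproliferative gene, was at 37.3, 46.99 and 82.03 CPM in sham and 188, 303 and 145 CPM at 6 h (log2 difference 1.94 ± 0.41, adjusted p = 0.000474). Ccng1, cyclin G1, went the other way, from 1081 ± 39.8 to 603 ± 38.2 CPM (log2 difference -0.84 ± 0.14, adjusted p = 4.24e-05), as did Trp53inp1, from 40.5 ± 7.49 to 13.1 ± 5.99 CPM (log2 difference -1.62 ± 0.28, adjusted p = 5.81e-05). Of 28 cell cycle genes 1 rose, or 2 without 6 h replicate 1 or 3, and 4 fell (median -0.33, and -0.03 without 6 h replicate 3). Mcm2, a subunit of the replicative helicase, fell by 1.02 on the log2 scale (adjusted p = 0.000225), and Ccnd1, cyclin D1, was the gene that rose (log2 difference 0.75, adjusted p = 0.00155).

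Anticoagulant receptors of the endothelium rose. Of 24 complement and coagulation genes 11 rose and 5 fell, or 2 without 6 h replicate 2 and 3 without 6 h replicate 1 or any 1 sham library (median 0.37). Thbd, thrombomodulin, was at 60.2, 56.03 and 54.7 CPM in sham and 226, 368 and 154 CPM at 6 h (log2 difference 2.13 ± 0.22, adjusted p = 4.86e-08), and Procr, the endothelial protein C receptor, at 1.03, 0.548 and 1.44 CPM in sham and 4.26, 4.69 and 2.99 CPM at 6 h (log2 difference 2.00 ± 0.43, adjusted p = 0.000575). All 3 libraries at 6 h were above sham for both genes. F10, coagulation factor X, which monocytes and macrophages also make, had 1 read over the sham group against 143 at 6 h, a ratio of 124 (exact 95% counting interval 21.8 to 4917). Cd55, a brake on complement at the cell surface, fell from 15.8 ± 1.73 to 5.74 ± 1.19 CPM (log2 difference -1.46 ± 0.24, adjusted p = 2.41e-05), and C3, the central complement protein, was at 165 and 116 CPM and not called (log2 difference -0.51, adjusted p = 0.205).

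Markers of the mesothelium, the outer lining of the heart, were called in both directions, with 2 of 10 higher, or 1 without 6 h replicate 2, and 3 lower (median -0.89). Over all genes 24.6% were higher and 22.9% lower. The number lower was 1 without any 1 of sham replicate 1 and 6 h replicates 2 and 3, and 6 with no filter or with only the 6 libraries in the fit. Krt8, a keratin of simple epithelia, was at 0.899, 0.822 and 0 CPM in sham and 5.32, 7.56 and 5.79 CPM at 6 h (log2 difference 3.37 ± 0.71, adjusted p = 0.00047). Gpm6a, a membrane glycoprotein of that layer, was at 8.35, 6.44 and 8.47 CPM in sham and 1.95, 1.52 and 0.623 CPM at 6 h (log2 difference -2.49 ± 0.51, adjusted p = 0.000311), and Wt1, a transcription factor of that layer, was not called (log2 difference -0.55, adjusted p = 0.105).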
